A study of Mus musculus with 4 samples.

Results

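The comparison described here sets naive-derived Th17 cells against Treg cells, measured on 2 of the 4 arrays of the series (1 array per population). The arrays were chosen by their labels, and no measured value entered the choice. The Th17 population grew from naive CD4 T cells kept under Th17 conditions and was sorted after culture as IL-17 positive (by GFP) and Foxp3 negative (by APC). The Treg population grew from Foxp3+ CD4 T cells kept with IL-2 and was sorted as Foxp3 positive and IL-17 negative. The starting cells of both were taken from C57BL/6 mice aged 8 to 10 weeks (spleen and lymph nodes) as were those of the other populations, Th0 (naive CD4 T cells under Th0 conditions, negative for both markers) and exFoxp3Th17 (Foxp3+ CD4 T cells under Th17 conditions, IL-17 positive and Foxp3 negative). How many mice or cultures stand behind an array, and the cytokines of the Th17 conditions, are not given in the sources used here. Th17 and Treg differ in precursor, culture and gate at once, and these cannot be told apart. With 1 array each there is no spread between samples and no test: every value is a difference between 2 arrays, checked only by the other probe sets of the same gene.

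Th17 cells are helper T cells that make IL-17 and act on epithelia and neutrophils at mucosal surfaces and in inflamed tissue. Regulatory T (Treg) cells restrain immune responses, and the transcription factor Foxp3 is required for their identity. Both fates draw on TGF-beta, and which of them a naive CD4 T cell takes depends on further signals: IL-6 acting through STAT3 favours Th17, and IL-2 acting through STAT5 favours Treg.

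The values are signal intensities, and the trimmed mean of each array in the deposited table is 100. A signal under 12.1, the pooled median of the 4 arrays without control spots, counts as below the floor and was raised to it before a ratio was taken, so a fold against such a value is written as "at least". A gene counted as measured when its brightest probe set lay above the floor on Th17 or Treg, and as higher or lower from a 2-fold difference upward. On Th17 48.7% and on Treg 49.9% of probe sets lay above the floor, and the 3'-to-5' signal ratio, which grows as RNA degrades, was 0.907 in Th17 and 0.918 in Treg for Gapdh and 1.14 and 1.12 for Actb. Xist (7.73 in Th17, 10.8 in Treg) was below the floor on both arrays, and the Y-linked Eif2s3y was above it on both (876 and 654), so the pair does not cross the difference in sex-linked transcripts that sets the exFoxp3Th17 array apart (Xist 3766, Eif2s3y 4.66).

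The gated gene and the lineage genes were read first. Foxp3 had a signal of 6.20 in Th17, below the floor, against 585 in Treg; it was used in the sort and is no finding. Il17a, the other sorted product, had 9.81 in Th17 and 8.18 in Treg, so its probe set read below the floor on both arrays, the one gated for IL-17 included. Il21, a cytokine of Th17 and follicular helper cells, reached 1212 in Th17 and only 0.770 in Treg, and its second probe set read 491 against 1.70. Rora, a nuclear receptor that promotes Th17 differentiation, was at 682 in Th17 and 107 in Treg, with ratios of 1.25 to 2.80 on the log2 scale in its 6 other probe sets above the floor. Ikzf2, which encodes the Treg factor Helios, was at 48.2 in Th17 and 2115 in Treg. The Th17 label was therefore borne out by Il21, Rora and Ccr6 (329 against 54.5). The Il17a probe set was also below the floor in Th0 (7.09) and in exFoxp3Th17 (9.41), which was gated for IL-17 too. It therefore does not inform on the label.

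All 12 of 12 measured CD4 T cell identity genes lay within 2-fold (median log2 ratio 0.04), as did 89.6% of all measured genes. Cd3d, a chain of the T cell receptor complex, was at 3492 in Th17 and 3133 in Treg. The receptor's zeta chain gene Cd247 lay farthest from equality, at 467 and 842.

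Across the whole table, 628 of 10984 measured genes were higher in Th17 (5.72%) and 517 were lower (4.71%), 10.4% in all, while 9839 lay within 2-fold. At 4-fold or more 161 were higher (1.47%) and 124 lower (1.13%), 2.59% in all. At 8-fold or more 59 were higher (0.537%) and 41 lower (0.373%), 0.91% in all, and at 16-fold or more 18 (0.164%) and 16 (0.146%), 0.31% in all. The median log2 ratio over measured genes was -0.01, with quartiles of -0.31 and 0.31, and the Pearson correlation of the floored log2 signals across these genes was 0.940, a description of the 2 arrays since genes are not independent replicates. By the same rule the other pairs of arrays had 11.1% (Treg against Th0), 16.1% (exFoxp3Th17 against Th17), 16.2% (Th17 against Th0), 19.4% (exFoxp3Th17 against Th0) and 22.4% (exFoxp3Th17 against Treg) of genes past 2-fold. Th17 against Treg was thus the pair with the smallest share, by a small margin over Treg against Th0; the pairs share arrays, and no test separates them. The balance of calls moved with the floor: at 0.5 times the floor the lower genes were more (794 higher, 858 lower).

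**Figure D1:**
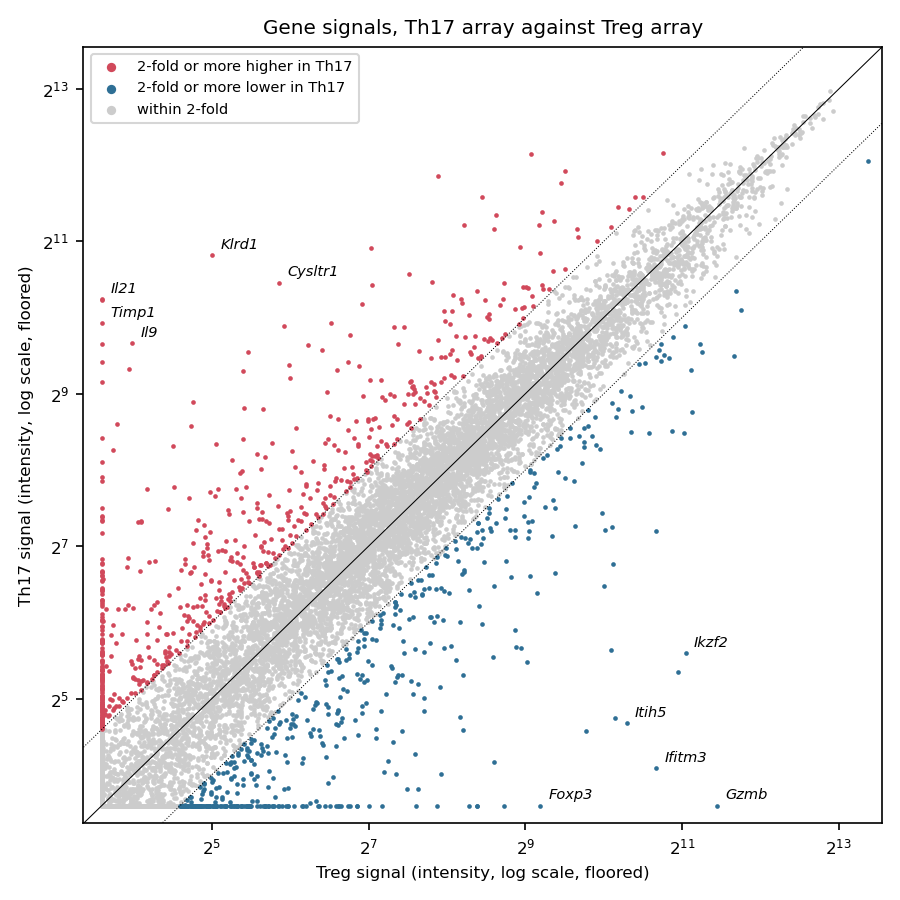
Signal of each of the 10984 measured genes on the Th17 array (vertical) and the Treg array (horizontal), both as intensities on log scales with values below the floor of 12.1 drawn at it; the solid line marks equality and the dotted lines 2-fold. Most genes follow the line of equality, 628 lie above the upper dotted line or on it (Il21, Timp1, Klrd1, Cysltr1) and 517 below the lower one (Gzmb, Ifitm3, Ikzf2).

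The 15 largest ratios upward were led by secreted factors and by a receptor pair known from natural killer cells. Il21 was at least 100.1-fold higher in Th17. Klrc1, the inhibitory receptor chain NKG2A, was at 1200.0 in Th17 and 6.98 in Treg, at least 99.2-fold higher. Its partner chain CD94, encoded by Klrd1, was at 1801 and 32.1, 56.1-fold higher. Both chains of this heterodimer were thus among the 15, and in exFoxp3Th17 Klrc1 read 23.2 and Klrd1 504. In Th0 Klrc1 read 3.18 and Klrd1 256, so for Klrd1 the Treg array was the low one.

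Timp1, an inhibitor of matrix metalloproteinases, was at 972 in Th17 against 1.21 in Treg. The cytokine genes Il9 and Il24 followed: Il9 was at 813 and 15.8 (51.5-fold higher), and Il24 at 568 and 8.18 (at least 46.9-fold higher). Neither of the 2 cytokines was as high in exFoxp3Th17 (38.8 and 6.60) or in Th0 (9.70 and 0.778).

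Receptors among the 15 were Cysltr1, for cysteinyl leukotrienes (1406 in Th17, 57.9 in Treg, 24.3-fold higher), and Lgr4, for R-spondins (639.8 and 15.4, 41.5-fold higher). For Cysltr1, Th0 read 59.5 and exFoxp3Th17 47.8, so Th17 was the high array, as it was for Il24 and Serpinf1. Enzymes were the glycosyltransferase Gcnt2 (at least 56.6-fold higher), the lipase Mgll, which cleaves monoacylglycerols (at least 22.7-fold higher), the kinase gene Alpk2 (at least 28.4-fold higher) and Dntt, the terminal transferase known from lymphocyte precursors (at least 19.9-fold higher, 241 against 6.88). Crispld2 (at least 66.5-fold higher), Serpinf1 (28.1-fold higher) and Mctp2 (22.9-fold higher) completed the set.

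Among the 15 largest ratios downward, Gzmb led: the granule protease granzyme B had 11 in Th17 and 2781 in Treg, at least 229.8-fold lower. In a bulk sample, fewer cells that express a gene and less RNA per cell cannot be told apart. Interferon-inducible genes were among those that followed. Ifitm3, a membrane protein that restricts virus entry, was at 17 in Th17 and 1624 in Treg (95.3-fold lower), the GTPase gene Iigp1 at 40.9 and 1976 (48.3-fold lower), and Ifitm1 at 26.7 and 1130.0 (42.3-fold lower). Each of the 3 was highest on the Treg array, with no other array above 154.

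The transcription factors in the set were Foxp3, Ikzf2 (43.8-fold lower) and Prdm1. Prdm1, the gene of Blimp-1, which drives effector differentiation, was at 4.14 in Th17 and 422 in Treg, at least 34.9-fold lower. Ikzf2 was carried by 3 probe sets above the floor, all in the same direction. The other 2 gave log2 ratios of -5.79 and -1.84, both limited by a Th17 signal below the floor.

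Cell surface and signalling genes were the chemokine receptor Cxcr3 (18 in Th17, 389 in Treg, 21.6-fold lower), the adhesion molecule Epcam (at least 27.6-fold lower; log2 ratio -1.96 in its other probe set), the death ligand TRAIL, encoded by Tnfsf10 (at least 19.5-fold lower), and Trat1, an adaptor that binds the T cell receptor complex (23.9 and 876, 36.7-fold lower). For Trat1, Th0 had 994, close to Treg, so Th17 and exFoxp3Th17 (48.2) were the low arrays. Itih5 had the same low arrays (25.5 in Th17, 13.7 in exFoxp3Th17), with Th0 at 435 and Treg at 1255. Itih5 (49.1-fold lower), Igfbp7 (at least 25.6-fold lower), the calcium-binding S100a4 (21.8-fold lower) and the granule membrane gene Nkg7 (at least 16-fold lower) were the others.

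**Figure D2:**
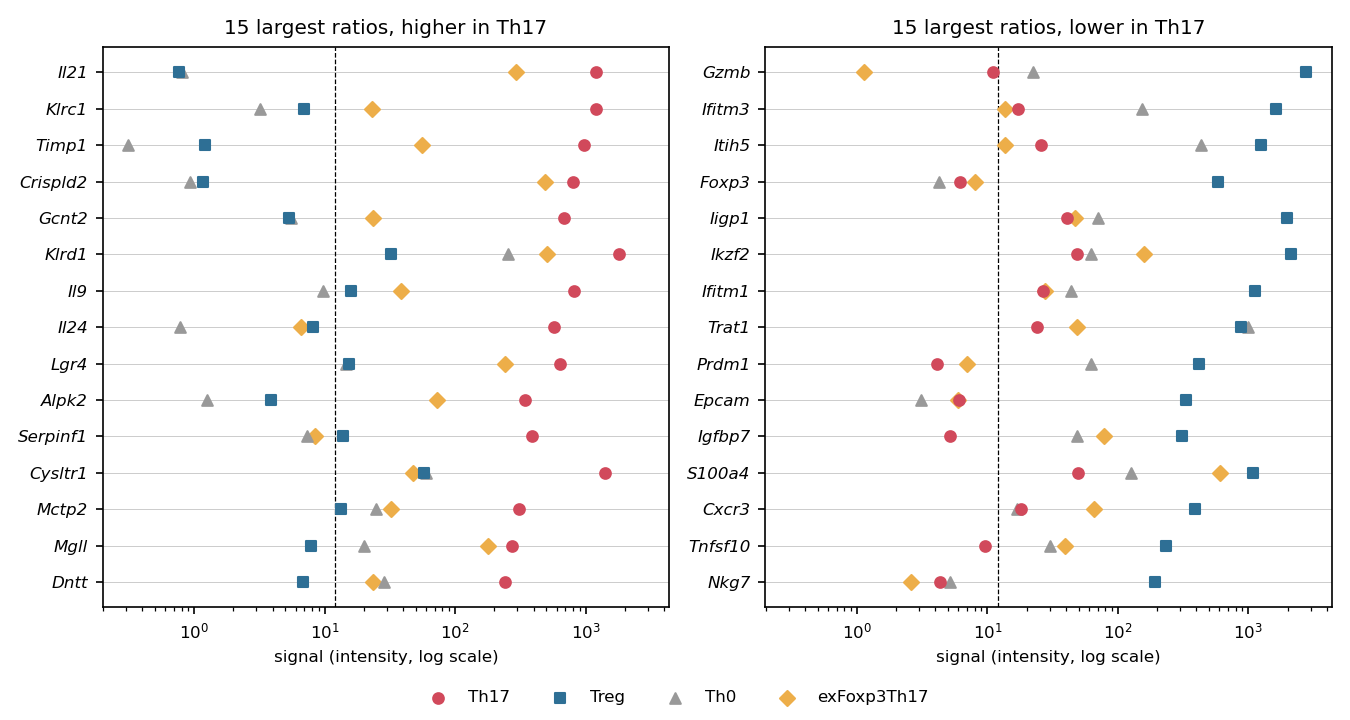
Signal (intensity, log scale) on each of the 4 arrays for the 15 genes with the largest ratio higher (left) and lower (right) in Th17 than in Treg; the dashed line is the floor of 12.1. On the left the Th17 circles lie far to the right of the Treg squares, with Treg below the floor for Il21, Klrc1 and Timp1; on the right the order is turned, and for Trat1 the Th0 triangle lies next to Treg.

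Of the 59 genes 8-fold or more higher in Th17, 24 were below the floor in Treg, 31 in Th0 and 6 in exFoxp3Th17. Of the 41 genes 8-fold or more lower, 17 were below the floor in Th17, 6 in Th0 and 14 in exFoxp3Th17. The Treg and Th17 counts below the floor follow from the choice of these genes, and the others are descriptions of 1 array each. Of the 30 genes with the largest ratios, 16 had no other probe set above the floor and 14 had one or more. Ratios of the others were smaller for Serpinf1 (log2 ratio at least 1.45), and ran down to at least 0.96 for Gcnt2, 0.55 for Mgll and 1.18 for Dntt. On each of these probe sets Treg read below the floor, so the floor limits the ratio. Their Th17 signals were dim, at 33.0 for Serpinf1, 23.6 for Gcnt2, 17.7 for Mgll and 27.4 for Dntt.

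The Th17 program was described by role, starting with its transcription factors. Of 16 measured, 8 were higher, 1 was lower and 7 lay within 2-fold; the median log2 ratio was 1.07 against -0.01 over all genes. The ligand-activated receptor gene Ahr was at 1528 in Th17 and 183 in Treg (8.35-fold higher); its dim second probe set read 22.7 and 13.3, a log2 ratio of 0.76. Etv6 was 3.43-fold higher, Irf4, needed for Th17 differentiation, was 2.83-fold higher (1055 against 373, with a log2 ratio of 0.19 in its other probe set), Fosl2 2.88-fold higher and Bhlhe40 2.42-fold higher.

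Maf, a factor of IL-10 and IL-21 production, showed how much a ratio can depend on the probe set. The brightest read 3072 in Th17 and 1351 in Treg, 2.27-fold higher. Its 4 other probe sets above the floor gave log2 ratios of 1.55 to 2.11, all larger. Treg itself had a high Maf signal next to Th0 (17.2). Members within 2-fold were Stat3 (614 against 477), Hif1a (4162 against 3006), Runx1, Junb, Nfkbiz, Cebpb and Batf, an AP-1 factor required for Th17 cells (421 against 581). The lower member was Ikzf3, the Ikaros family factor Aiolos, at 159.9 in Th17 and 524 in Treg.

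Cytokines and chemokines separated the arrays more. Of 11 measured members, 9 were higher, 1 was lower and 1 was within 2-fold, and the median was 1.94. Besides Il21, Il9 and Il24, Ccl20, the ligand of Ccr6, was at 169 in Th17 and 2.67 in Treg (at least 14-fold higher), Csf2, which encodes GM-CSF, at 61.1 and 6.55 (at least 5.05-fold higher), and Tnf at 204 and 53.2 (3.84-fold higher). The anti-inflammatory Il10 was also higher in Th17, at 408 against 133, although it is listed among Treg effectors too. The gene of RANKL, Tnfsf11, whose product drives osteoclast formation, was the lower one, at 33.5 in Th17 and 190.2 in Treg. Lta lay within 2-fold (1626 and 886).

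Receptors and surface proteins of the Th17 list were higher for 9 of 14 measured and lower for 0, with a median of 2.56. Procr, the protein C receptor, was 17.1-fold higher, Tmem176a 10.5-fold higher and Tmem176b 8.99-fold higher. The homing receptor Gpr15 was at 1161 in Th17 and 121 in Treg. The receptor for leukotriene B4, Ltb4r1, was at 447 and 50.1, and Il1r1, the receptor for IL-1, at 103 and 1.62. Several of these were higher still in exFoxp3Th17, with Ccr6 at 1522 and Tmem176a at 2710.0, whereas Procr (19.3) and Ltb4r1 (23.4) were not. The chains for IL-6 lay within 2-fold, Il6ra at 527 in Th17 and 272 in Treg and Il6st at 71.4 and 106.

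The Treg program split within each role. Of 15 measured transcription factors 5 were lower in Th17, 2 were higher and 8 lay within 2-fold, with a median of -0.16. After Foxp3, Ikzf2 and Prdm1 the lower ones were Gata3, which directs Th2 cells and also acts in Treg cells, at 27 in Th17 and 288 in Treg, and Nr4a3 at 24.3 and 136. The higher ones were Satb1, a chromatin organiser of T cells that Foxp3 is known to repress (3881 against 729.9, 5.32-fold higher), and the repressor Bach2 (1216 against 419, 2.90-fold higher). Ikzf4, the gene of Eos, was within 2-fold, at 318 and 292.

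Surface proteins of the Treg list were lower for 7 of 16 and higher for 0, with 9 within 2-fold and a median of -0.84. Lower members were the integrin chain Itgae, or CD103 (46.7 in Th17, 384 in Treg, 8.23-fold lower), the ectoenzyme Entpd1, or CD39 (15.7 and 93.4), Gpr83 (5.45-fold lower), Klrg1 (at least 4.25-fold lower), the folate receptor family gene Izumo1r (3.79-fold lower), Tnfrsf1b (3.40-fold lower) and the IL-2 receptor beta chain Il2rb (2.29-fold lower).

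The most used Treg surface markers were not among them. Il2ra, which encodes CD25 and raises affinity for IL-2, was at 2178 in Th17 and 2878 in Treg, and its second probe set read 1344 and 1403. Ctla4 was at 1943 and 2789, Tnfrsf18, or GITR, at 1911 and 2979.8, Tnfrsf4, or OX40, at 1658 and 2319.9, and Icos at 2359 and 2139. Each of these genes stood above Th0 on both arrays (Il2ra at 646, Ctla4 at 755, Icos at 671 in Th0). All 5 thus lay within 2-fold between Th17 and Treg, while Ikzf2, Itgae and Entpd1 did not. Itgae was not highest in Treg, since exFoxp3Th17 read 1298, whereas Ikzf2 (158) and Entpd1 (8.39) read below Treg there.

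Secreted and effector genes of the Treg list had 5 of 13 lower, 2 higher and 6 within 2-fold (median -0.35). Lower ones were Gzmb, S100a4 (49.9 in Th17, 1088 in Treg), the enkephalin precursor Penk (at least 6.11-fold lower), the fibrinogen-like immunosuppressive Fgl2 (74.1 and 339.9) and the zinc finger gene Plagl1 (2.04-fold lower). In exFoxp3Th17 Plagl1 (278) read above Treg (88.5), and S100a4 (608) and Penk (54.1) read above Th17, while Gzmb (1.13) and Fgl2 (51.5) did not. The matrix gene Ecm1 was higher, at 1305 in Th17 and 335 in Treg, as was Il10.

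Ebi3, a subunit of IL-35, was within 2-fold (196 and 134), and so was Tgfb1 (66 and 125).

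Signals that feed the 2 fates gave the following values. The IL-2 and STAT5 response, a list that overlaps with the Treg lists, had 12 of 16 members within 2-fold (median -0.37). The other members were 3 lower and 1 higher, beside 10.4% of all measured genes past 2-fold. IL-2 is named only for the Treg culture. The direct feedback targets were close: Socs2 was at 3052 in Th17 and 3883 in Treg, Cish at 1460.2 and 1366, and the kinase Pim1 at 1821 and 2458. Gzmb, Prdm1 and Il2rb were the lower members and Ahr the higher one.

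For the IL-6 and STAT3 response, 10 of 13 lay within 2-fold, beside 89.6% of all measured genes, with 2 higher and 1 lower (median 0.36). Socs3, the feedback inhibitor of IL-6 signalling, was at 2121 in Th17 and 2461 in Treg. The higher members were Il21 and Fosl2, and the lower was Fos (126 and 333).

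TGF-beta response genes had 3 of 13 higher, 2 lower and 8 within 2-fold (median 0.50). Gpr15, Tgfbi (47.6 in Th17, 3.52 in Treg) and Pmepa1 (609.5 and 265) were higher. Itgae and the type I receptor Tgfbr1 were lower, Tgfbr1 at 228 in Th17 and 564 in Treg. The inhibitory Smad7 lay within 2-fold (194 and 141).

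Targets of the aryl hydrocarbon receptor, the product of Ahr, were higher for 4 of 5 measured members, with 1 lower (median 1.27). Cyp1b1, an enzyme of xenobiotic metabolism, was at 160.4 in Th17 and 1.13 in Treg (at least 13.3-fold higher), and its other probe set gave a log2 ratio of 2.05. Cyp1a1 was at 35.9 and 10.8, the ADP-ribosyltransferase Tiparp at 518 and 215, and the repressor Ahrr at 51.3 and 21.8. Nqo1, which also answers to oxidative stress, was the lower member (0.616 and 32.6, at least 2.70-fold lower). Cyp1a1 was higher again in exFoxp3Th17, at 257.

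The lowest median of all lists of T cell genes was that of the interferon-gamma GTPases and IFITM genes, -1.75. These genes encode defence proteins that cells make when interferon acts on them: the guanylate-binding proteins (Gbp), the immunity-related GTPases (Irgm, Igtp, Iigp) and small membrane proteins (Ifitm). Of 15 measured members 11 were lower in Th17, 0 were higher and 4 lay within 2-fold, beside 4.71% of all genes lower. Behind Ifitm3, Iigp1 and Ifitm1, Gbp6 was at 24.1 in Th17 and 295 in Treg, Gbp3 at 89.5 and 1027, Gbp7 at 147 and 1621, and Ifitm2 at 50.9 and 492.

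Smaller differences were those of the interferon-induced factor Irf1 (195 in Th17, 655 in Treg), Irgm2 (199 and 529), Igtp (1308 and 3292) and Irgm1 (179 and 431). Not all of the family took part: Gbp2 was at 1298 and 1370.2, and Ifi47 at 1645 and 1953. Members of the Gbp and Ifitm families resemble each other in sequence, and how far their probe sets bind each other's transcripts was not tested.

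**Figure D3:**
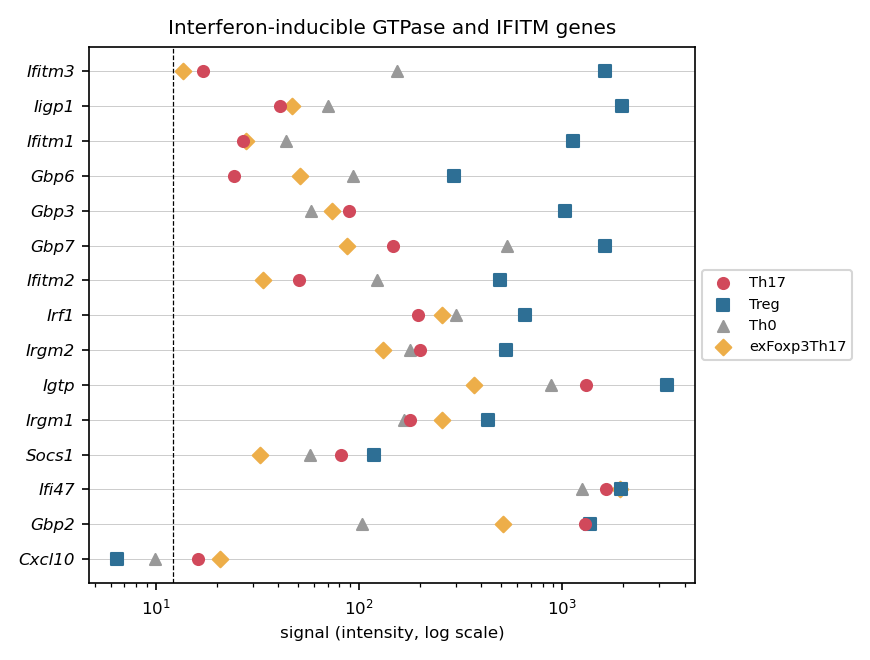
Signal (intensity, log scale) of the 15 interferon-inducible GTPase and IFITM genes with a probe set on the 4 arrays, from the lowest Th17-to-Treg ratio at the top; the dashed line is the floor of 12.1. The Treg squares lie to the right of all other arrays from Ifitm3 down to Irgm1, while at Ifi47 the arrays lie close together and at Gbp2 Th17 and Treg do.

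Because these genes moved together, the letters around their start sites were read from RefSeq (300-base windows, build GRCm38.p6; 13 of the 15 genes matched, giving 15 windows). An ISRE-like motif, GAAA and GAAA with any 2 bases between them (the core of an interferon-stimulated response element), was in 10 of 15 windows on either strand, against 3.44% of all 32851 windows of this length. The motif TTCNNNGAA, the core letters of a STAT binding site (a gamma-activated sequence), was in 5 of 15, against 8.30% of all windows. These genes were listed as interferon-inducible, so their share of windows with such motifs does not bear on Th17 against Treg. In Ifitm3 the second motif overlaps a match of the first, and a match is a description of letters, not a binding site. Windows of 3 lower genes that hold both motifs are printed 5′ to 3′ on the gene's strand with the matches in capitals: Ifitm3 (minus strand, chr7:141010695-141010994), Gbp7 (plus strand, chr3:142530086-142530385) and Igtp (plus strand, chr11:58199306-58199605).
Ifitm3: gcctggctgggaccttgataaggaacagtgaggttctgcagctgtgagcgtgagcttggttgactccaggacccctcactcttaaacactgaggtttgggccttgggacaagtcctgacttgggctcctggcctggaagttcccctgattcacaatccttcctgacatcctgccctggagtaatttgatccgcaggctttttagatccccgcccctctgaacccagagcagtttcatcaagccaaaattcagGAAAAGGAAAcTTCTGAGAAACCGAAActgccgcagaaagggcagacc
Gbp7: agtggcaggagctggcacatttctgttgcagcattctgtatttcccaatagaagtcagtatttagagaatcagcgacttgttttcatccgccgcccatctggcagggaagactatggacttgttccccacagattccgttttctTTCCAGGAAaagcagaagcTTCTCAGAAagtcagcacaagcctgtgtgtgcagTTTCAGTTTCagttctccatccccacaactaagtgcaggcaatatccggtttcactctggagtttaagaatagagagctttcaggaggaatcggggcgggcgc
Igtp: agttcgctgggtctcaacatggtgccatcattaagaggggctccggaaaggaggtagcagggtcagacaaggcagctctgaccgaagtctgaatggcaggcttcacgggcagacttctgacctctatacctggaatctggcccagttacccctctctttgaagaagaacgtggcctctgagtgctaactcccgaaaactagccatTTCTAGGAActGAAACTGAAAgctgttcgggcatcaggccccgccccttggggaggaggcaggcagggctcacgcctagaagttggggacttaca
In the Ifitm3 window 2 matches of the first motif and 1 of the second lie next to each other near the 3′ end, in Gbp7 2 of the second precede 1 of the first, and in Igtp 1 of the second precedes 1 of the first. The first motif was also in 9 of 17 windows of the type I interferon list, of which 4 of 15 measured genes were lower, and in 2 of 10 of the MHC class I list, so it does not mark the shifted list alone. Ifitm1, 42.3-fold lower in Th17, had neither motif in its window, and the windows of Gbp2, Socs1 and Cxcl10, all within 2-fold, had the first.

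Type I interferon response genes shifted less: 4 of 15 were lower, 0 higher and 11 within 2-fold (median -0.48). Rtp4 was at 22.3 in Th17 and 136 in Treg, and the nuclease Isg20 at 97.1 and 453. For Rtp4 the highest array was Th0, at 342. The sensor Ifih1 (65.7 in Th17 and 76.4 in Treg) and Bst2 (221 and 254) were close on the pair.

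In MHC class I presentation, 3 of 11 members were lower and 8 within 2-fold (median -0.68), and none had a ratio above 0. The peptide transporter gene Tap1 was at 316 in Th17 and 859 in Treg, and the immunoproteasome genes Psmb9 and Psmb10 were 2.40-fold lower and 2.62-fold lower. Within 2-fold were the light chain B2m (4426 and 5152) and the heavy chains H2-K1 (3079 and 3704) and H2-D1, by their brightest probe sets. The other probe sets of H2-K1 gave log2 ratios of -2.09 to -0.34, and those of H2-D1 -1.20 to -0.31.

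Genes of other helper fates were placed as follows. Of 11 measured Th1 genes 6 were lower in Th17, 1 was higher and 4 lay within 2-fold (median -1.08). Tbx21, which encodes the Th1 factor T-bet, was at 0.527 in Th17 and 86.8 in Treg (at least 7.17-fold lower), and was below the floor in Th0 (0.730) and exFoxp3Th17 (3.01). Interferon gamma itself, Ifng, was at 0.256, below the floor, and 25.7, at least 2.12-fold lower. The chemokine genes Ccl5 (28.6 and 97.7) and Ccl4 (11.9 and 39.9) and the receptor chain Il18r1 (348 and 819.6) completed the lower members with Cxcr3, and Stat4, a mediator of IL-12 signals, was the higher one (318 and 151).

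Follicular helper genes were divided, with 5 of 11 higher, 2 lower and 4 within 2-fold (median 0.94). Higher were Il21, Tox2 (383 in Th17, 26.6 in Treg), the repressor Bcl6 (172 and 37.4, with a log2 ratio of 0.18 in its other probe set), Btla (1046 and 312) and Sh2d1a (852 and 418). Lower were Tox (28.7 and 208) and Pdcd1, or PD-1 (27.8 and 89.7). The paralogs Tox and Tox2 thus went in opposite directions. In the Th2 list 4 of 6 lay within 2-fold; Gata3 was lower and Il4 higher, at 38.5 in Th17 and 8.84 in Treg.

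Granule genes of cytotoxic cells were lower for 6 of 9 measured members and higher for 1 (median -1.19). Apart from Gzmb and Nkg7, Gzma, granzyme A, was at 2.40 in Th17 and 109 in Treg, the pore-forming Prf1 at 24.5 and 56, and the granzyme inhibitor Serpinb9 at 31 and 80.7. Ctsw, a cathepsin of cytotoxic lymphocytes, was the higher one (1358 and 502). The granule proteoglycan gene Srgn was bright and alike, at 3939.7 and 3493.

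Killer lectin receptors gave 4 higher and 3 lower of 8 (median 0.73). After Klrc1 and Klrd1 the higher ones were Klrb1f (45.4 in Th17, 19.3 in Treg) and Klrk1 (32.2 and 14.1). The lower ones were Klrg1 and a pair of Clec2 genes, whose products are ligands of the Nkrp1 receptors: Clec2i at 19.3 in Th17 and 192 in Treg, and Clec2d at 672 and 1394. Natural killer cell markers did not show up as a block on either array. Of 7 with a probe set, 1 was above the floor in Th17 (Klre1, 167 against 0.857) and 2 were in Treg (Gzma and, at 21.5, Eomes), while Ncr1 (1.02 and 6.04) and Tyrobp (0.363 and 2.43) were below it on both.

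Trafficking genes divided the populations by receptor. Of 11 chemokine and lipid receptors 3 were higher, 3 lower and 5 within 2-fold (median -0.39). Higher were Ccr6, the lymph node homing receptor Ccr7 (992 in Th17, 251 in Treg) and Cxcr4 (545 and 188). Lower were Cxcr3, Ccr2 (67.2 and 222) and S1pr1, the receptor for exit from lymphoid organs (138 and 351).

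Of 12 integrin chains 6 were lower, 2 higher and 4 within 2-fold (median -0.69). Itgb8, the chain that takes part in activating latent TGF-beta, was at 2.69 in Th17 and 71 in Treg. Itga6 was at 438 and 1316, and Itgb3 at 18.1 and 152, with Th0 higher than both (797). The higher chains, Itga3 (2.15-fold higher) and Itgb1 (2.02-fold higher), lay just past 2-fold.

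In the TNF receptor superfamily 3 of 13 members were higher, 3 lower and 7 within 2-fold (median -0.03). Higher were Cd40 (102 in Th17, 16.9 in Treg), Tnfrsf25, or DR3 (581 and 129.9), and Tnfrsf13b (1118 and 496). Lower were Cd27 (43.2 and 156), Tnfrsf1b and Tnfrsf13c.

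Coinhibitory receptors had 2 of 10 higher and 4 lower (median -0.44). Btla and Vsir (847 in Th17, 376 in Treg) were higher; Klrg1, Cd200r1 (30.8 and 125), Pdcd1 and Havcr2, or TIM-3 (6.24 and 31.1), were lower.

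Galectins, S100 proteins and annexins included 5 lower members of 13 and none higher (median -0.76). After S100a4, S100a6 was at 635 in Th17 and 2214 in Treg, and Anxa1 at 10.7 and 58.1. Lgals1, a bright galectin gene, was within 2-fold (6222 and 7111).

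Genes that handle adenosine and cyclic AMP separated by enzyme: 4 of 9 were higher and 2 lower (median 0.97). The phosphodiesterase gene Pde3b, a known target of Foxp3 repression, was at 1379 in Th17 and 132 in Treg (10.4-fold higher), and it was high in Th0 (2459) and exFoxp3Th17 (3261) as well. Pde4d (2.67-fold higher), Dpp4 (3.26-fold higher) and Pde4b (2.02-fold higher) were also higher. Entpd1 and the deaminase Ada (44.9 and 127) were lower. Nt5e, or CD73, which completes the path from ATP to adenosine after Entpd1, lay just within 2-fold the other way, at 866 in Th17 and 443 in Treg.

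Naive and resting T cell genes did not go one way: 5 of 14 were higher, 4 lower and 5 within 2-fold (median 0.58). Il7r, the receptor for the survival cytokine IL-7, was at 2378 in Th17 and 297 in Treg (8.00-fold higher), and stood with Satb1, Ccr7, Bach2 and Klf4 among the higher ones. Klf2, a regulator of migration (273 and 843), Id3 (62.8 and 350.2), S1pr1 and Dapl1 (14.9 and 89.3) were lower. For Il7r and Satb1 the Treg array was the low one of the 4, with Th0 at 1267 and 3066. For Klf2, Th0 was the high one (1336).

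Among AP-1 and immediate early genes 5 of 18 were higher, 3 lower and 10 within 2-fold (median 0.31). Batf3 was at least 9.39-fold higher (114 in Th17, 2.08 in Treg), Ier3 5.90-fold higher, Egr2 at least 3.42-fold higher and Jun 3.09-fold higher. Of NF-kB subunits and inhibitors, Relb (132 and 27.2) and the inhibitor Tnfaip3, or A20 (344 and 112), were higher. The other 9 of 11 lay within 2-fold (median 0.61), beside 89.6% of all measured genes. In the BCL2 family 9 of 10 lay within 2-fold, near that share of all genes, and the pro-apoptotic Bid was lower (29.2 and 78.4). The other probe sets of Bid gave log2 ratios of -0.75 and -0.66. Metallothioneins and zinc transporters had 7 of 9 within 2-fold, beside the same 89.6%. The transporters Slc39a14 (3.60-fold) and Slc30a4 (3.13-fold) were higher. Mt1 was bright on both arrays (3765 and 2664) and dim in Th0 (99.1).

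In 6 lists of growth and metabolism 5 of 89 measured members were past 2-fold (5.62%), beside 10.4% of all genes and 5.33% in the brightest of 5 equal bins by signal, so the share is near the background for bright genes. All 15 of 15 measured respiratory chain genes, all 16 of 16 of cholesterol synthesis and all 15 of 15 of ribosome biogenesis lay within 2-fold, with medians of -0.04, -0.24 and 0.17. In glycolysis 13 of 15 lay within 2-fold (median 0.11): Ldha was at 4649.8 in Th17 and 4833 in Treg and Aldoa at 3569 and 3518. The higher ones were the hexokinase Hk2 (835 and 383) and the glucose transporter Slc2a3 (2328 and 1095), while Hk1 (682 and 539) and the transporter Slc2a1 (2387 and 1831) lay within 2-fold. In amino acid supply 14 of 16 lay within 2-fold, with Ddit3 higher (2.12-fold higher) and the serine synthesis gene Phgdh lower (761 and 1674), and in fatty acid synthesis 11 of 12, with the elongase gene Elovl5 lower (803 and 1693).

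Ratios of replication and mitosis genes lay below 0, but few passed 2-fold. None of 19 DNA replication genes was called, and their log2 ratios ran from -0.92 to -0.09 with a median of -0.56, so that all were below 0. Of 16 mitosis genes 2 were lower, Foxm1 (26.4 in Th17, 61.5 in Treg) and the cyclin Ccnb2 (679.7 and 1471), and ratios ran from -1.22 to -0.27 (median -0.69). Ribonucleotide reductase Rrm2 was at 2300.3 and 3611 and the proliferation marker Mki67 at 1915 and 2837. Of 11 D cyclin and cyclin-dependent kinase genes, inhibitors included, 3 were lower, 0 higher and 8 within 2-fold (median -0.28). The lower ones were inhibitors: Cdkn2a was at 1.93 and 82.8 (at least 6.84-fold lower), Cdkn2c at 181 and 664 (3.66-fold lower) and Cdkn2b at 5.56 and 33.3 (at least 2.75-fold lower). The inhibitors Cdkn1a (727 and 434), Cdkn1b (489.6 and 595), Cdkn1c and Cdkn2d lay within 2-fold.

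**Figure D4:**
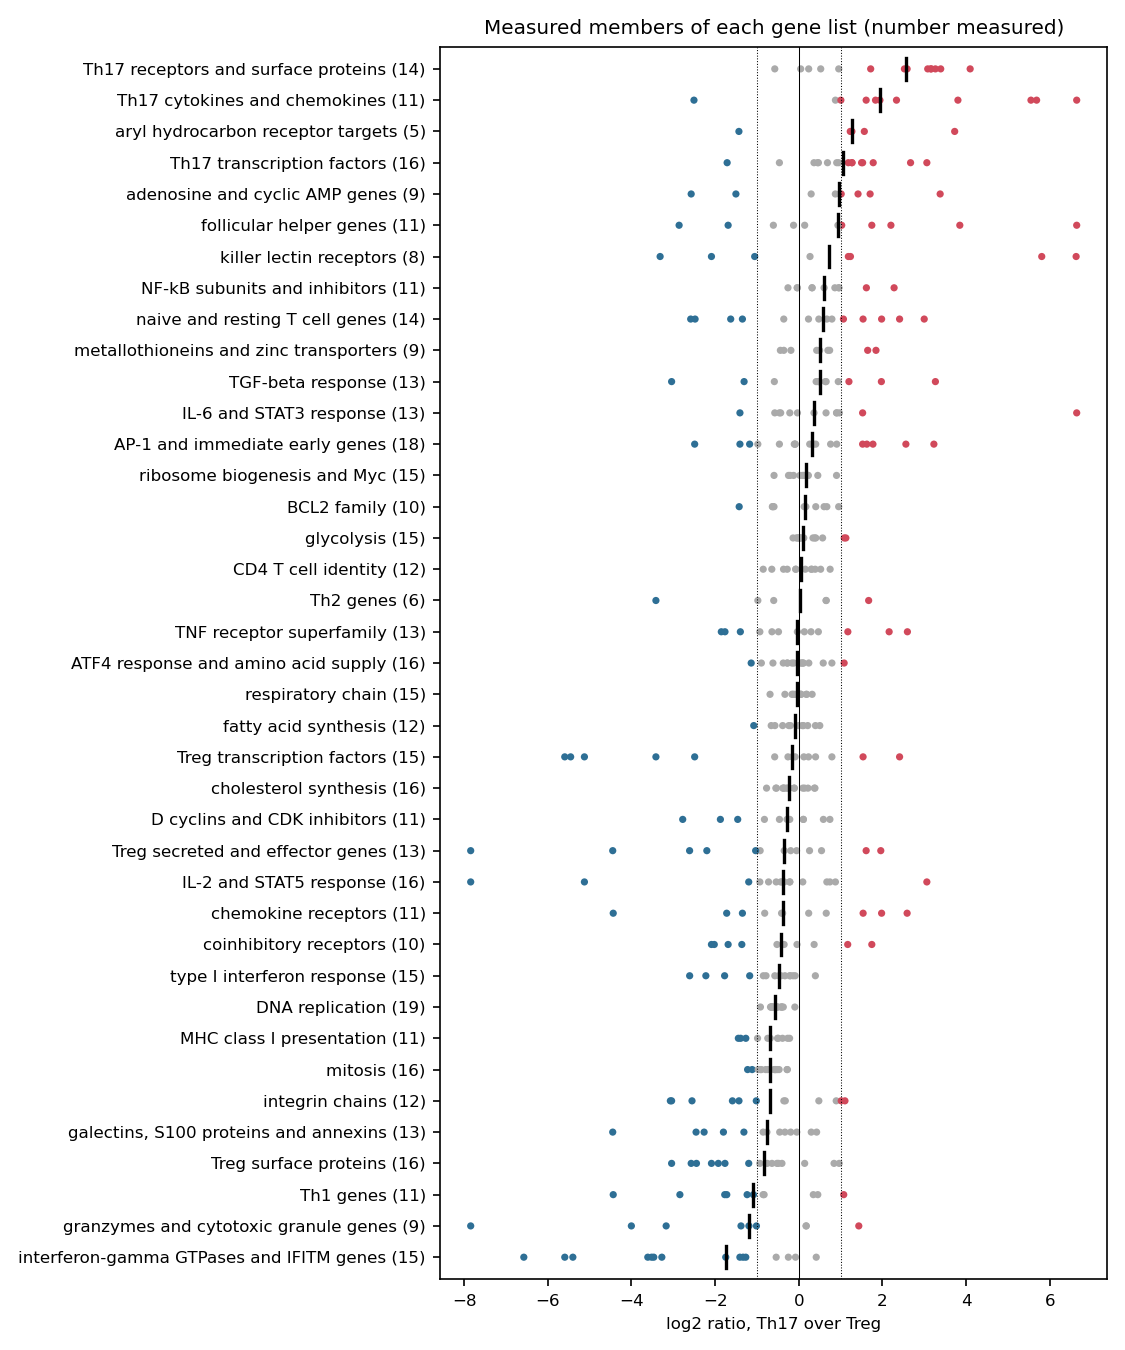
Log2 ratio of Th17 over Treg for every measured member of each list of T cell genes (1 point a gene, the number measured in brackets), with the list median as a black bar, 2-fold as dotted lines, and red and blue for members past 2-fold higher and lower in Th17. Th17 receptors and cytokines have the highest medians (2.56 and 1.94) and interferon-gamma GTPases and IFITM genes the lowest (-1.75), while metabolic lists cluster within the dotted lines.

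In 4 places of the genome, 4 or more neighbouring measured genes were past 2-fold in the same direction (gene order from RefSeq, GRCm38.p6). The run in the natural killer gene region held Cd69, Gabarapl1, Klre1, Klrd1, Klrk1 and Klrc1, all higher in Th17. Within it Gabarapl1, an autophagy gene that is no receptor, was at 518 in Th17 and 88.9 in Treg, and the early activation marker Cd69 at 738 and 317. A second run on the higher side held Gm8273, Chd7, Clvs1, Asph, 2610301B20Rik and Plekhf2, genes with no family in common. It depends on the probe set of Asph, whose others above the floor gave log2 ratios of -0.38 to 1.49. With the probe set picked on unfloored values Asph reads -0.38, which breaks the run in its middle. For Clvs1 the other probe set gave 0.09. The chromatin remodeller Chd7 was at 806 in Th17 and 166 in Treg, Clvs1 at 98 and 5.36, and Plekhf2 at 128 and 42.7.

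On the lower side 1 run held Ifitm2, Ifitm1, Ifitm3, Ifitm6 and B4galnt4, and another Abcg3, Gbp8, Gbp6 and Lrrc8c. Ifitm6 was at 2.23 in Th17 and 62.6 in Treg and the neighbouring glycosyltransferase gene B4galnt4 at 39.9 and 116. Lrrc8c, a subunit of a volume-regulated anion channel next to the Gbp genes, was at 714 and 1623. With 2 times the floor Abcg3, Gm8273 and Klrk1 lay within 2-fold (log2 ratios of -0.20, 0.90 and 0.41), which leaves 3 genes in the run with Gbp6. Klrk1 lies between Klrd1 and Klrc1, so its loss also parts Klrc1 from the run in the natural killer gene region. How often such runs arise among unrelated genes was not tested.

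Agreement between probe sets was the only check of a single call. Of the 628 genes higher in Th17, 283 had another probe set above the floor on Th17 or Treg; the next brightest one went the same way for 268 and by 2-fold or more for 157. Of the 517 lower genes 192 had one, with 186 going the same way and 110 by 2-fold or more. The remaining 345 and 325 calls rest on 1 probe set. At 4-fold or more all 78 and all 53 next brightest probe sets went the same way, 66 and 45 of them by 2-fold or more, and at 8-fold or more the numbers were 30 of 30 and 18 of 18, with 25 and 16 by 2-fold or more. From 4-fold upward the next brightest probe set therefore repeated the direction in every gene that had one. With every other probe set counted, all went the same way in 74 of 78 higher and 53 of 53 lower genes at 4-fold. At 8-fold they did so in 29 of 30 and 18 of 18. Of the 159 called genes of the lists 61 had another probe set above the floor, and in 18 of these none of the others was past 2-fold the same way. These were Ahr, Irf4, Sox5, Lif, Plagl1, Tgfbr1, Pmepa1, Bcl6, Itga4, Itgb1, Vsir, Prf1, Egr2, Tnfaip3, Bid, Ddit3, Foxm1 and Ebf1; for Vsir the other gave 0.03, and for Prf1, called lower, 0.18.

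Across all 5326 measured genes with a second probe set above the floor, the robust SD of the difference between both log2 ratios was 0.35. This spread depended on the signal: with genes in 5 equal bins by signal, it was 0.56 in the dimmest bin and 0.23 in the brightest. The share of genes past 2-fold was 13.9% in the dimmest bin, 16.5% in the next and 5.33% in the brightest.

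The clearest disagreement was in Ms4a6c, a membrane protein gene: its brightest probe set read 509 in Th17 and 189 in Treg, a log2 ratio of 1.43, and its other one gave -2.44. In Ddr1, a collagen receptor (1.90), the others ran from -1.09 to 1.25, in Rabgap1l (-1.68) from -1.61 to 0.60, in Arhgap39 (2.37) from -0.55 to 2.02 and in Ube2f (1.03) from -0.50 to 1.28. In Zfp865 (-1.56 against 0.59), Ccdc184 (-1.25 against 0.49) and Ss18l1 (1.09 against -0.49) the other probe set also pointed the opposite way. For these 8 genes the direction of the difference is open to the choice of probe set.

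**Figure D5:**
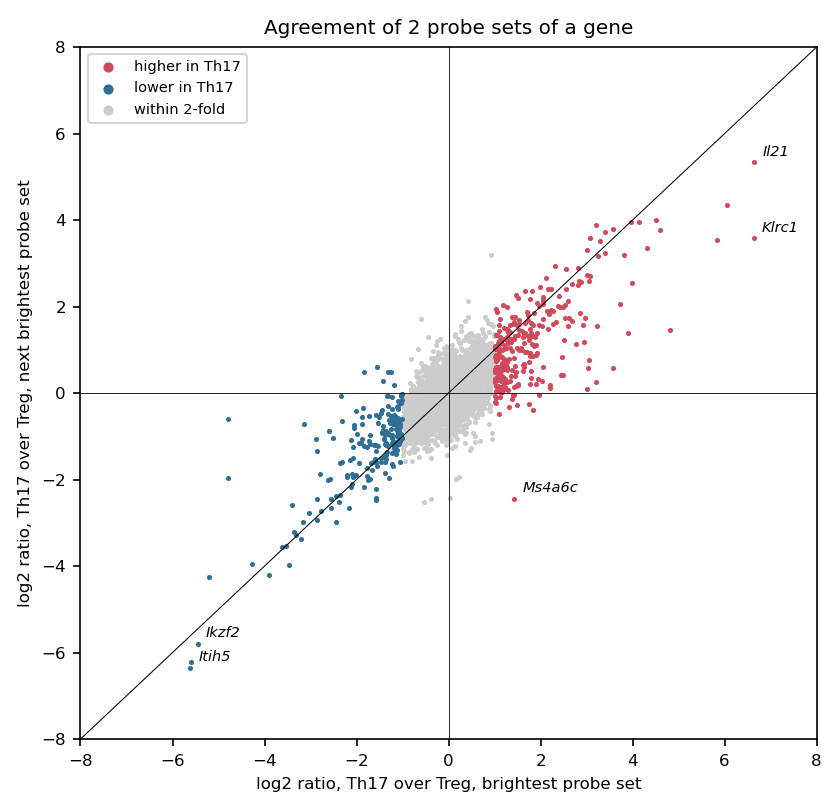
Log2 ratio of Th17 over Treg by the brightest probe set of a gene (horizontal) and by the next brightest above the floor (vertical), for the 5326 measured genes that have both; the diagonal marks equal ratios. Called genes lie mostly to the upper right (268 of 283 higher) and lower left (186 of 192 lower), with Ms4a6c the outlying point in the lower right.

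Markers of other cell types were mostly below the floor. Of 9 B cell markers with a probe set 1 was above the floor in Th17 (Ebf1, 30.1) and 1 in Treg (Cd79b, 55.6), with summed signals of 63.8 and 91.3. Of 11 monocyte and macrophage markers 2 and 2 were above it (sums 58 and 56.5; Lyz2 at 3.66 and 2.45), and of 8 neutrophil markers 1 and 2 (sums 41.5 and 81.4; S100a9 at 0.306 and 4.00). Dendritic cell markers summed to 253 in Th17 and 302 in Treg, most of it from Bst2, which T cells also express. Of the gamma delta T cell markers Trgv4 was higher, at 106 in Th17 and 15.1 in Treg (summed signals 126 and 39.5). For Trgv4, Th0 read 103 and exFoxp3Th17 122, so Treg was the low array. Sox13 (11.6 in Th17, 16.4 in Treg) lay within 2-fold, and Blk (8.23 and 7.99) was below the floor on both. The part of Trgv4 in the results was not tested. Red cell and platelet markers summed to 33.4 and 53.2 and stromal markers to 107 and 73.6. Of the CD8 T cell markers Cd8a was at 13.5 in Th17 and 14.3 in Treg, near the floor, and Cd8b1 at 83.5 and 51.7, above it. MHC class II genes, known from antigen-presenting cells, had 5 of 5 measured members within 2-fold (summed signals 392 and 363). Among them H2-Ab1 was at 219.8 in Th17 and 132 in Treg, with other probe sets at log2 ratios of 1.25 and 1.37, and H2-DMa at 129.9 and 139.6. The part of these cells in the results was not tested.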

How the data were processed

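The deposited intensities were made by the authors with MAS5, per the submitters' processing notes, which condenses a probe set to 1 linear signal and scales each array; no version is named. The cRNA was biotinylated, starting from 1 µg of total RNA, per the labels' protocols. Of 45101 probe sets, 64 are controls, 34945 have 1 gene symbol on the platform annotation, 932 have several and 9160 are unnamed here; 34741 of the single symbols were matched to RefSeq and 204 kept as given.

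From these values, signals were raised to the floor (12.1), put on the log2 scale and differenced, with python 3.11.15, numpy 2.4.6 and pandas 2.3.3. Each gene is read from 1 probe set, that with the highest mean floored log2 value on the 4 arrays among those naming it alone (18193 genes, 10984 measured). Named genes are the sorted and lineage genes, the 15 largest ratios in each direction with a brighter signal of at least 48.4 (4 times the floor), no other probe set opposed by 2-fold and no clone name, list members, the 8 called genes with the most opposed probe sets, and runs of 4 or more neighbours. Eif2s3y and Xist are list members. The 51 lists hold 598 genes, 545 with a probe set. Members, lists and comparisons were chosen with earlier results of these data known, and no list was tested. Simulated arrays with known differences served to check the calls. The number of arrays limits the precision. Some genes of these lineages are not reported here.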

Additional observations from a re-analysis of the deposited data

How the results depend on the processing

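No paired analysis was possible because each population has 1 array. The counts of higher and lower genes (628 and 517) stayed within 1.5 times under 2 times the floor, the floor as a pseudocount, both other scalings, averaging the probe sets of a gene, leaving out _x_at and _s_at probe sets and, chosen after the data were seen, picking the probe set on unfloored values. With 0.5 times the floor 858 genes were lower, and with 4 times the floor 365 were higher and 266 lower. At 3-fold the counts were 267 and 215, at 4-fold 161 and 124, and where the next brightest probe set also had to pass 2-fold 157 and 110; these rules admit fewer genes by construction. Equal medians of expressed probe sets gave 591 and 580. The 454 of 475 called genes with a second probe set in the same direction became 245 at 4 times the floor and 131 at 4-fold. Ms4a6c reversed to a log2 ratio of -0.51 with the mean of its probe sets, and Asph to -0.38 with the probe set picked on unfloored values. Of the other values under these alternatives, 355 of the named genes' ratios and 466 of the list medians moved by less than 0.35. That is the spread between probe sets, and 147 and 40 moved by more. A ratio against a value below the floor moves with the floor by construction, as for Alpk2 at 0.5 times the floor (4.83 to 5.83). The cause of the other moves was not tested.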
